A study of Mus musculus with 8 samples.

Results

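The genes described here are 33 markers of leukocytes, the white blood cells, measured in cells sorted as gastric epithelium. They were taken by gene symbol through their NCBI Gene IDs, and all 33 were found among the 38920 rows of the authors' tables. They comprise 7 markers shared by most leukocytes, 2 innate signalling adaptors, 6 T cell markers, 3 cytotoxic and natural killer (NK) markers, 4 B cell markers, 9 monocyte, macrophage and dendritic cell markers and 2 neutrophil markers. The series compares gastric epithelial cells of C57BL/6 mice fed a high fat diet with those of control mice, by sequencing of total RNA from sorted cells after removal of ribosomal RNA. There are 4 libraries titled HFD (HFD22, HFD23, HFD26 and HFD27) and 4 titled ND (ND15.17.18, ND16, ND19 and ND20), all of stomach and with no transgene or mutation named. Sort markers, diet composition and length, and the age and sex of the mice are not stated in the sources used here. The labels do not say whether a library is 1 mouse, and ND15.17.18 carries 3 numbers in its title. The p-values below therefore measure the spread between these libraries.

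The deposited values are log2 values scaled to a common total and floored at 0, so a gene below 1 on the linear scale is listed as 0. The worth of 1 read was estimated from the steps between low values, and gave depths of 31.4 to 46.0 M reads in HFD libraries and 16.4 to 63.2 M in ND libraries. "Reads" below are read equivalents from that estimate, and levels are log2(value + 1) after each library was divided by the median ratio of its genes to their mean over libraries. The library ND15.17.18 stood apart: its 20 most abundant rows took 85.7% of its total, against 29 to 43.1% in HFD libraries and 27.8 to 59.1% in the other ND libraries. The library HFD23 was the least like the others in rank order, with Spearman correlations over all rows of 0.845 to 0.896, against 0.910 to 0.980 for pairs without it. After scaling, a gene listed as 0 could stand anywhere below 5.70 on the linear scale in ND15.17.18, below 0.82 to 0.95 in HFD libraries and below 0.73 to 1.48 in the other ND libraries. All 16 gastric epithelial markers examined, among them Epcam and the proton pump gene Atp4a, were above 0 in all 8 libraries, so the labelled cell type was present throughout.

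Leukocytes enter the stomach wall from blood and lie both beneath and between the epithelial cells. T cells bearing CD8 and the integrin subunit CD103 (encoded by Itgae) are typical of those between epithelial cells, where CD103 binds E-cadherin, while macrophages and dendritic cells lie mostly in the lamina propria below. All leukocytes carry the surface phosphatase CD45 (Ptprc), and the lineages are told apart by their antigen receptors, adhesion molecules, granule proteins and phagocyte receptors. ETS-family transcription factors, PU.1 in particular, bind a GGAA core in the promoters of many leukocyte genes.

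Promoter sequences are shown for the members on which the results below turn: Lcp1, the highest by level per length, Ptprc, which defines leukocytes, and Cd53 and Cd3e, whose levels did not overlap between the diets. They run from 250 bases before to 50 after the start site given for the gene in the RefSeq promoter table (GRCm38.p6, the assembly also called mm10), 5′ to 3′ on the gene's strand. In the same assembly the RefSeq genes extend over chr14:75131105-75230842 (Lcp1), chr1:138062859-138175756 (Ptprc), chr3:106758861-106790149 (Cd53) and chr9:44998735-45009663 (Cd3e). Capitals mark GGAAGT, a common ETS-type word, or its reverse complement ACTTCC. The intervals are chr14:75130873-75131172 on the plus strand for Lcp1, and on the minus strand chr1:138175256-138175555 for Ptprc, chr3:106790100-106790399 for Cd53 and chr9:45009562-45009861 for Cd3e.
Lcp1: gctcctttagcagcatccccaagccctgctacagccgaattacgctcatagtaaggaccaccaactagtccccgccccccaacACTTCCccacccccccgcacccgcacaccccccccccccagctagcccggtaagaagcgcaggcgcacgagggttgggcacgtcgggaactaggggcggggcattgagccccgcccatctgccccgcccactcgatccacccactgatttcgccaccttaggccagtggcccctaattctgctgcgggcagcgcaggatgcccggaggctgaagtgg
Ptprc: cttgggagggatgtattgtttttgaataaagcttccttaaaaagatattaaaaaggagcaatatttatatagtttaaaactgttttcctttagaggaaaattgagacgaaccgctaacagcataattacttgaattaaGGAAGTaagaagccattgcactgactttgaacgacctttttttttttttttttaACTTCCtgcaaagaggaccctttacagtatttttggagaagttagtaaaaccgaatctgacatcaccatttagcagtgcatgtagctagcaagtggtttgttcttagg
Cd53: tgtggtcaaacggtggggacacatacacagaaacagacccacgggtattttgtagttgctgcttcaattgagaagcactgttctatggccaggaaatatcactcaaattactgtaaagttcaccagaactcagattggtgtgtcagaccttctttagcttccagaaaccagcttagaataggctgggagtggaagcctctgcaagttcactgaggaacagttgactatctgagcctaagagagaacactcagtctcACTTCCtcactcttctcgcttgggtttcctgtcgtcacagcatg
Cd3e: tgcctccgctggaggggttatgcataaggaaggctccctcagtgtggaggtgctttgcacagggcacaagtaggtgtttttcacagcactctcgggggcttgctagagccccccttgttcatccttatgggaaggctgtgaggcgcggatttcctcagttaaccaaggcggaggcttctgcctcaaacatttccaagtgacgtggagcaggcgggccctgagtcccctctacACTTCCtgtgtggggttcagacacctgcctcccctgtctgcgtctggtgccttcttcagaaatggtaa
Of the 33 members, 22 had a promoter in the RefSeq table. GGAAGT was found on either strand in 14 of these 22 (63.6%), against 24.1% of the 27025 promoters in the table. The longer word AGGAAGTG, which contains it, was found in 6 of the 22 (27.3%), against 4.19% of all. GAGGAA, the core of PU.1 sites, was found in 13 (59.1%), against 28.3% of all. The RUNX word TGTGGT was found in 9 (40.9%), against 16.9% of all, while CCGCCC was found in 7 (31.8%) against 35.9% and TATAAA in 4 (18.2%) against 14.2%. These matches describe letters in a window of fixed length, on both strands, and no binding was measured.

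Most leukocyte markers were present at low levels, and a few genes made up nearly all of their reads. Lcp1 was not low: its log2 ratio to the epithelial gene Epcam averaged -1.13 in HFD and -0.46 in ND libraries. Against the epithelial gene Cdh1 it averaged -3.19 in HFD and -3.63 in ND libraries. Lcp1 alone took 22.7% of the reads over the 33 members in ND15.17.18 and up to 84.4% in ND20, with a median of 78.3% over the 8 libraries. Lcp1, Rac2, Ptprc and Coro1a together took 88.9 to 96.8%. The 26 members that mark a lineage or a function rather than all leukocytes held between 106 and 372 reads per library, or 2.31 to 10.9 per M reads. The 16 gastric epithelial markers held 650579 to 5670530 reads. Of the 33 members, 15 were above 0 in all 8 libraries, 27 in at least 4 and 6 in fewer, and S100a8 was listed at 0 in every library. In all, 10 members never reached 10 reads in any library.

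The number of members listed at 0 was 2, 6, 6 and 8 in HFD22, HFD23, HFD26 and HFD27, and 16, 4, 13 and 12 in ND15.17.18, ND16, ND19 and ND20. Over all 38920 rows, those at 0 numbered 10047, 13525, 12451 and 11441 in HFD and 16479, 10393, 12399 and 14005 in ND, in the same order. The floor was worth more than 1 read in HFD26, HFD27, ND15.17.18 and ND20 (1.25, 1.04, 1.44 and 1.71), so a single read there is listed as 0. ND15.17.18 had the highest floor after scaling, ND19 the lowest depth and ND20 the greatest depth, and the part of floor and depth in these counts was not tested. Counting only members with at least 2 reads, which no floor hides, gave 28, 24, 27 and 24 in HFD and 16, 22, 17 and 21 in ND. By members at 0, ND16 lay within the HFD range. By members with at least 2 reads it lay below every HFD library, but only through the cutoff. Reads are estimates, and ND16 fell just short of 2 for Cd52, Tyrobp and Cd79a (1.96, 1.83 and 1.77). HFD23 did so for Cd79a (1.80). With these values counted, ND16 would no longer lie below HFD27. The matching count over all rows was not made, and reads were not brought to equal depth. No difference between the diets is therefore drawn from these counts.

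**Figure D1:**
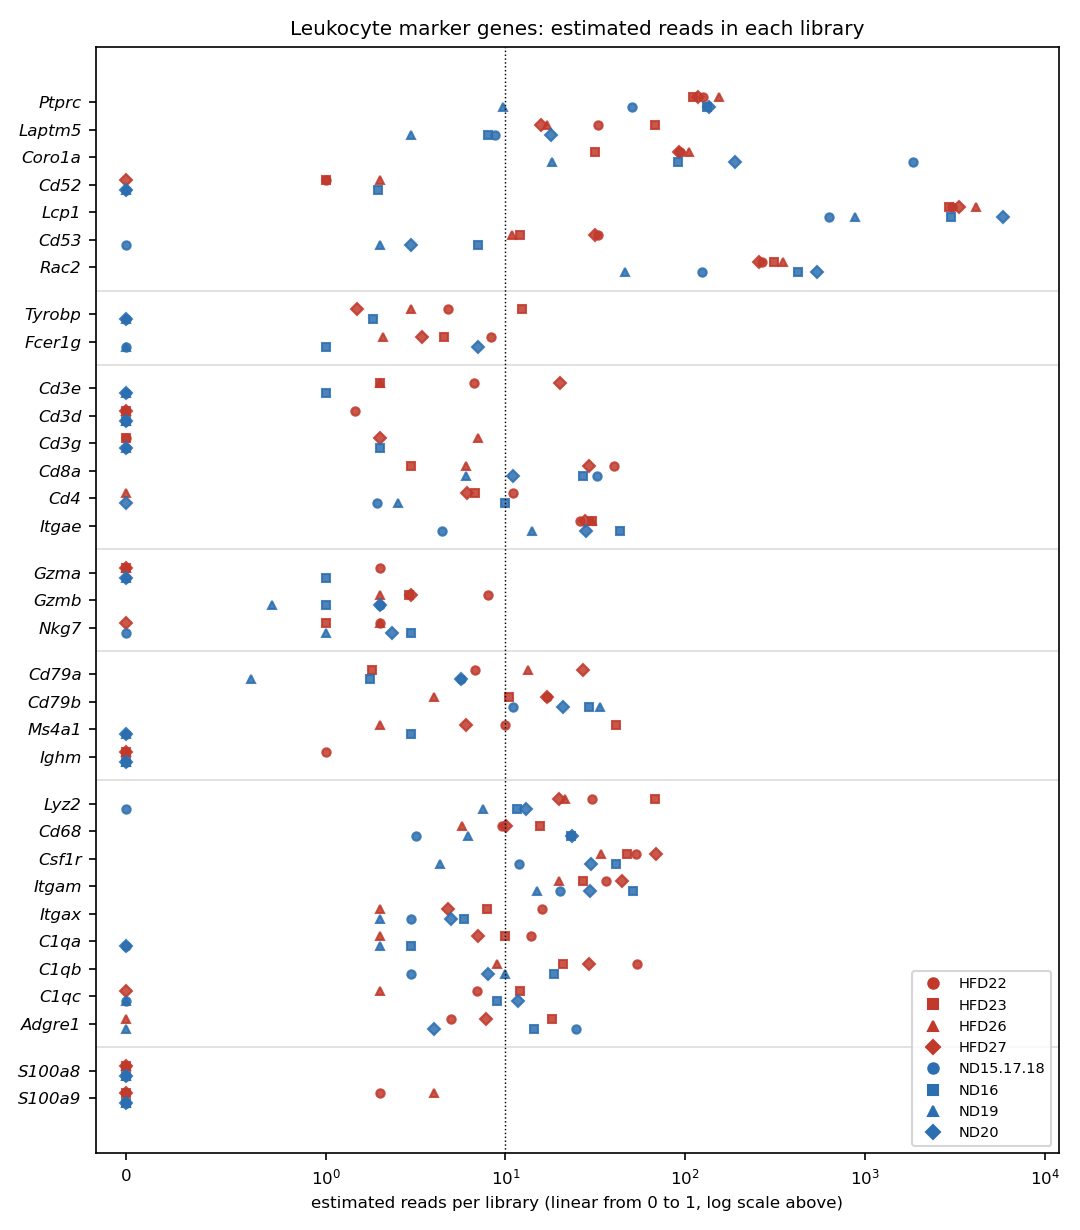
Estimated reads of each of the 33 members (rows, grouped by class) in each library (symbols), HFD in red above ND in blue; the horizontal axis is linear from 0 to 1 and logarithmic above, and the dotted line marks 10 reads. Lcp1 lies between 635 and 5908 reads, while S100a8 is at 0 in every library and Cd3d, Gzma, Nkg7 and Ighm never exceed 3 reads.

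Among the 7 markers shared by most leukocytes, Lcp1 had the highest level in every library but ND15.17.18, where Coro1a exceeded it, and the smallest SD in each diet. Lcp1 encodes L-plastin, which bundles actin filaments and is also made by some cells outside the blood lineage. Its level was 11.54, 11.47, 11.44 and 11.46 in HFD22, HFD23, HFD26 and HFD27, against 11.29, 11.29, 11.51 and 11.75 in ND15.17.18, ND16, ND19 and ND20. The ranges overlapped, with means of 11.48 ± 0.05 in HFD and 11.46 ± 0.22 in ND (SD, n = 4 each). The difference was 0.01 ± 0.12 (limma, HFD minus ND ± SE, adjusted p = 0.973). Per kilobase of exon its median level on the linear scale was 297, against 5.71 for Ptprc. Lcp1 shares 311 bases of exon with Gm15628 on the opposite strand, and the sources used here do not say whether the authors counted by strand.

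Ptprc, with SDs of 0.14 in HFD and 1.09 in ND, was spread more widely among ND libraries, a contrast that was not tested. Its level was 6.96, 6.74, 6.70 and 6.65 in the HFD libraries, in the order above, against 7.65, 6.80, 5.06 and 6.32 in the ND libraries. ND15.17.18 was the highest of all 8 and ND19 the lowest, so the HFD values lay inside the ND range. The difference was 0.31 ± 0.48 (limma, adjusted p = 0.83). These levels rested on 110 to 154 reads in HFD libraries and on 50.8, 133, 9.69 and 135 reads in ND libraries. In a bulk sample, fewer cells of a type and less RNA per cell cannot be told apart.

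Rac2, which activates the phagocyte oxidase in blood cells, was second to Lcp1 per kilobase of exon, with a median of 90.4. Its level was 8.04, 8.23, 7.88 and 7.77 in HFD libraries, against 8.93, 8.46, 7.27 and 8.32 in ND libraries. The ranges overlapped, and the difference of -0.27 ± 0.32 did not pass the test (limma, adjusted p = 0.766). Its sign turned on the deposited scale, where the difference was 0.59.

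Coro1a, an actin-binding protein of leukocytes, and Laptm5, a lysosomal protein that limits antigen receptor signalling, were chosen for description after their values were seen. Coro1a stood at 6.54, 4.98, 6.15 and 6.31 in HFD libraries, against 12.84, 6.26, 5.93 and 6.79 in ND libraries. The value of ND15.17.18 rested on 1853 reads, against 91.1, 18.1 and 189 reads in the other ND libraries. With it the difference was -1.96 ± 1.496 (limma, adjusted p = 0.653), and without that library it was -0.34 (adjusted p = 0.862). Laptm5 stood at 5.06, 6.05, 3.63 and 3.85 in HFD libraries, against 5.16, 2.93, 3.46 and 3.52 in ND libraries, with a difference of 0.88 ± 0.76 (adjusted p = 0.686). The 4 HFD libraries lay above the 3 other ND libraries, and ND15.17.18 lay among the HFD values. With ND15.17.18 left out, 1733 of the 27401 tested rows were higher in every HFD library than in any ND library. Coro1a shares 26 bases of exon with Bola2 on the opposite strand.

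Cd53, a tetraspanin of the leukocyte surface, was higher in every HFD library than in any ND library, though it did not pass the test over all rows. Its level was 5.05, 3.67, 3.06 and 4.79 in HFD libraries, against 0.00, 2.77, 2.94 and 1.46 in ND libraries. These values rested on 32.7, 12.1, 10.9 and 31.5 reads in HFD and on 0, 7, 2 and 3 reads in ND. The difference was 2.35 ± 0.90 (limma, adjusted p = 0.405). The lowest HFD value, 3.06, and the highest ND value, 2.94 in ND19, lay close together, and the ND19 value is that of 2 reads. With every value below 5.70 raised to that number, the highest floor of any library, the difference was 1.34 (adjusted p = 0.365) and the groups still did not overlap. Without ND15.17.18 it was 1.75 (adjusted p = 0.57).

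Cd52, a small glycoprotein anchored in the lymphocyte membrane, was close to the floor throughout. It had 1, 1, 2 and 0 reads in HFD libraries, against 0, 1.96, 0 and 0 in ND libraries. The difference was 0.45 ± 0.60 (limma, adjusted p = 0.797), and its exons overlap those of Crybg2 on the opposite strand by 172 bases.

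The adaptors Tyrobp (DAP12) and Fcer1g (the Fc receptor gamma chain) carry the activating signals of receptors on myeloid and NK cells. Tyrobp had 4.82, 12.3, 3 and 1.5 reads in HFD libraries, against 0, 1.83, 0 and 0 in ND libraries. As levels these were 2.52, 3.69, 1.59 and 1.18 in HFD, against 0.00, 1.33, 0.00 and 0.00 in ND. HFD27 lay below ND16, so the groups overlapped by that pair. The difference was 1.91 ± 0.74 (limma, adjusted p = 0.411), and with the common floor of 5.70 it was 0.24. Fcer1g had 8.35, 4.53, 2.07 and 3.45 reads in HFD libraries, against 0, 1, 0 and 7.07 in ND libraries. Its groups overlapped through ND20, and the difference was 1.40 ± 0.77 (adjusted p = 0.548).

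T cell markers were detected unevenly: Itgae and Cd8a were above 0 in 8 libraries, Cd4 in 6, Cd3e in 5, Cd3g in 3 and Cd3d in 1. Itgae was above 0 in every library, with levels of 4.74, 4.92, 4.42 and 4.60 in HFD, against 4.21, 5.21, 5.57 and 4.13 in ND. The HFD values lay inside the ND range. The difference was -0.11 ± 0.51 (limma, adjusted p = 0.945), and its sign turned on the deposited scale (0.66). These levels rested on 26.2 to 30.3 reads in HFD libraries and on 4.43, 43.3, 13.97 and 28.2 reads in ND libraries.

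Cd8a, the alpha chain of the CD8 coreceptor of cytotoxic T cells, had 40, 3, 6 and 29 reads in HFD libraries, against 32.2, 27, 6 and 11 in ND libraries. HFD22 and HFD27 were high and HFD23 and HFD26 low, and in reads the HFD libraries spanned the whole ND range. As levels, Cd8a averaged 3.57 ± 1.68 in HFD and 4.71 ± 1.70 in ND (SD, n = 4 each), with a difference of -1.13 ± 1.07 (limma, adjusted p = 0.709). Cd4, the coreceptor of helper T cells, which some mouse myeloid cells also express, had 11, 6.78, 0 and 6.14 reads in HFD libraries, against 1.93, 10, 2.53 and 0 in ND libraries. Its difference was -0.11 ± 1.06 (adjusted p = 0.977).

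Cd3e, Cd3d and Cd3g encode the epsilon, delta and gamma chains of CD3, the complex that accompanies the T cell receptor at the surface. Cd3e had 6.67, 2, 2 and 19.99 reads in HFD libraries, against 0, 1, 0 and 0 in ND libraries. The corresponding levels were 2.91, 1.55, 1.23 and 4.16 in HFD, against 0.00, 0.87, 0.00 and 0.00 in ND. All HFD values lay above all ND values. The difference was 2.25 ± 0.78 (limma, adjusted p = 0.359). HFD23 and HFD26 rested on 2 reads and ND16 on 1, and with the common floor of 5.70 the difference was 0.40 and the groups overlapped. Cd3e also shares 135 bases of exon with Gm48719 on the opposite strand.

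The other CD3 chains had too few reads to show whether they moved with Cd3e library by library. Cd3g had 0, 0, 7 and 2 reads in HFD libraries, against 0, 2, 0 and 0 in ND libraries, and was at 0 in HFD22, where Cd3e had 6.67. Cd3d was above 0 only in HFD22, with 1.46 reads. Both were above 0 in fewer than 4 libraries and were not tested.

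The cytotoxic and NK markers held few reads in any library. Gzmb, the granule protease granzyme B, had 8, 2.9, 2 and 3 reads in HFD libraries, against 2, 1, 0.733 and 2 in ND libraries. The difference in level was 0.30 ± 0.77 (limma, adjusted p = 0.899). Nkg7, a granule membrane protein of NK and cytotoxic T cells, had 2, 1, 2 and 0 reads in HFD libraries, against 0, 3, 1 and 2.33 in ND libraries, with a difference of -0.35 ± 0.69 (adjusted p = 0.867). Gzma, granzyme A, had 2 reads in HFD22 and 1 in ND16 and was listed at 0 elsewhere, so it was not tested. No library held more than 12.0 reads over these 3 genes.

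B cell markers pointed in different directions. Ms4a1, which encodes CD20, had 10, 41, 2 and 6 reads in HFD libraries, against 0, 3, 0 and 0 in ND libraries. Its levels were 3.43, 5.34, 1.23 and 2.60 in HFD, against 0.00, 1.80, 0.00 and 0.00 in ND. HFD26 lay below ND16 and the other 3 HFD libraries above all ND libraries. The difference was 2.70 ± 0.95 (limma, adjusted p = 0.365), and with the common floor it was 0.82.

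Cd79a and Cd79b encode the paired signalling chains of the B cell receptor. Cd79b had 17.0, 10.5, 4 and 17.0 reads in HFD libraries, against 11, 29, 33.6 and 20.9 in ND libraries. Its level averaged 3.36 ± 1.03 in HFD and 5.17 ± 1.31 in ND (SD, n = 4 each), a difference of -1.81 ± 0.81 (limma, adjusted p = 0.48). The groups overlapped, since HFD22 and HFD27 lay above ND20. Cd79a had 6.8, 1.8, 13.3 and 27.1 reads in HFD libraries, against 5.62, 1.77, 0.625 and 5.66 in ND libraries. Its difference was 0.68 ± 0.98 (adjusted p = 0.814).

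By these few reads, the 2 chains were not found in a fixed proportion, which was not tested. HFD26 and HFD27 had more reads of Cd79a than of Cd79b, and ND19 had 33.6 reads of Cd79b and 0.625 of Cd79a. Ighm, the constant region of the IgM heavy chain, was above 0 only in HFD22, with 1 read, and was not tested.

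Markers of monocytes, macrophages and dendritic cells formed the largest class outside the shared markers, with 47.0 to 227 reads per library over 9 genes. Per kilobase of exon, the highest were C1qb (16.4), Lyz2 (11.9) and Cd68 (10.4). Csf1r, the receptor of macrophage colony-stimulating factor, and Itgam, the CD11b integrin chain, had the highest mean levels of the class, and exons of 5774 and 5024 bases in all, against 1088 for C1qb. Csf1r stood at 5.73, 5.54, 4.57 and 5.89 in HFD libraries, against 5.58, 5.14, 3.94 and 4.21 in ND libraries. The groups overlapped, and the difference was 0.71 ± 0.53 (limma, adjusted p = 0.643). Csf1r shares 873 bases of exon with Hmgxb3 on the opposite strand.

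Itgam stood at 5.19, 4.76, 3.84 and 5.28 in HFD libraries, against 6.32, 5.44, 5.67 and 4.19 in ND libraries. The difference was -0.64 ± 0.57 (limma, adjusted p = 0.696), and on the deposited scale its sign turned (0.19). Itgam overlaps Gm49368 on the same strand by 3450 bases of exon, so reads of these genes may not be separable. Itgax, the CD11c chain of dendritic cells and some macrophages, had 2 to 16 reads in HFD libraries and 2 to 5.87 in ND libraries, with a difference of -0.10 ± 0.83 (adjusted p = 0.971).

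Lyz2 encodes the lysozyme of macrophages and neutrophils, Cd68 a lysosomal glycoprotein of macrophages, and C1qa, C1qb and C1qc the chains of complement C1q, which tissue macrophages secrete. Of these, Lyz2, Cd68 and C1qb were chosen for fuller description after their values were seen. Lyz2 had 30.2, 68.3, 21.5 and 19.9 reads in HFD libraries, against 0, 11.5, 7.54 and 13 in ND libraries. In reads the groups did not overlap, but reads were not brought to equal depth, and ND19 had only 16.4 M in all. The share of all rows without overlap in reads was not counted. As levels after scaling, ND19 (4.70) stood above HFD26 (3.95) and HFD27 (4.16). The difference was 1.97 ± 1.03 (limma, adjusted p = 0.527), and without ND15.17.18 it was 1.04. Lyz2 has a near-identical neighbour, Lyz1, and reads may have been shared between them.

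Cd68 lay the other way. It stood at 3.38, 3.997, 2.28 and 3.24 in HFD libraries, against 3.76, 4.34, 4.43 and 3.88 in ND libraries. HFD23 lay within the ND range and the other 3 HFD libraries below it. The difference was -0.88 ± 0.64 (limma, adjusted p = 0.636).

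The C1q chains each had a positive fitted difference with a wide error. C1qb had 53.9, 20.9, 9 and 29 reads in HFD libraries, against 3, 18.7, 10 and 7.96 in ND libraries, a difference in level of 0.58 ± 0.81 (limma, adjusted p = 0.807). C1qa had 13.9, 9.98, 2 and 7 reads in HFD libraries, against 0, 3, 2 and 0 in ND libraries (1.64 ± 0.93, adjusted p = 0.561). C1qc had 6.98, 12.1, 2 and 0 reads in HFD libraries, against 0, 9, 0 and 11.7 in ND libraries (0.45 ± 1.11, adjusted p = 0.893). HFD26 was the lowest HFD library for C1qa and C1qb. Adgre1, an adhesion-type receptor used as a marker of mouse macrophages, had 5, 18.3, 0 and 7.82 reads in HFD libraries, against 24.7, 14.5, 0 and 4 in ND libraries (-0.59 ± 1.46, adjusted p = 0.895).

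The neutrophil markers were at or near the floor. S100a8 and S100a9 encode the chains of calprotectin, among the most abundant proteins of neutrophils. S100a8 was listed at 0 in all 8 libraries. S100a9 had 2 reads in HFD22 and 4 in HFD26 and was listed at 0 in HFD23, HFD27 and all 4 ND libraries. Along with Cd3d and Ighm, S100a9 was 1 of 3 members above 0 in HFD only, and no member was above 0 in ND only. With at most 4 reads in a library, none of these 3 was tested.

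**Figure D2:**
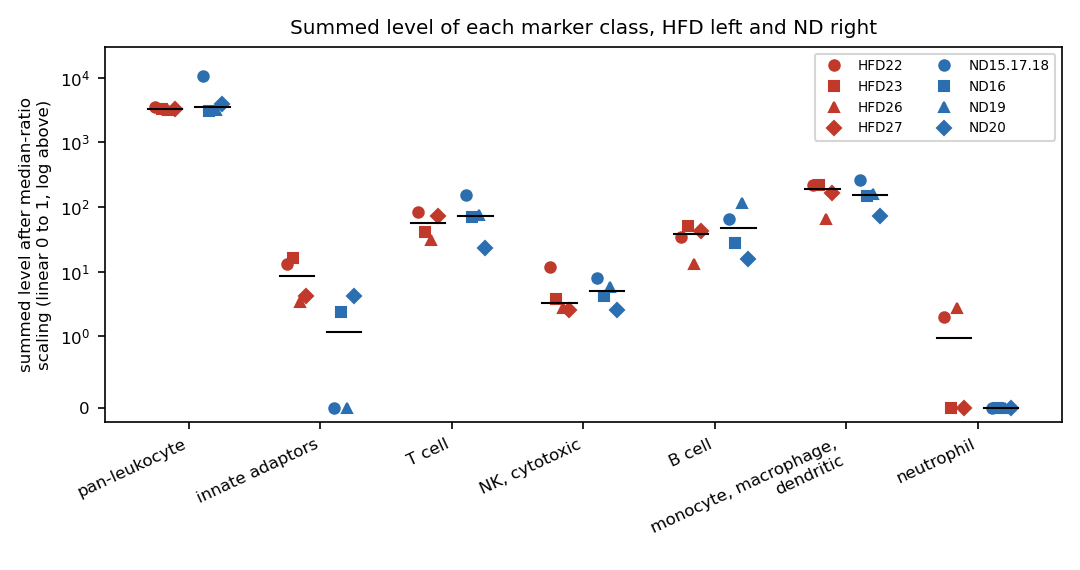
Sum of the scaled linear values of each marker class in each library (symbols), HFD in red on the left and ND in blue on the right of each class; the vertical axis is linear from 0 to 1 and logarithmic above, and black lines are medians. The diets overlap in every class, the ND libraries have no neutrophil marker above 0, and ND15.17.18 stands above the others for the pan-leukocyte class (10541).

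Summed by class, the diets overlapped in every class, as the plot of class sums shows. The shared leukocyte markers summed to 3197 to 3529 on the scaled linear scale in HFD libraries, against 3061 to 10541 in ND libraries. The T cell markers summed to 30.4 to 83.6 in HFD and 22.9 to 152 in ND, the cytotoxic and NK markers to 2.54 to 11.8 in HFD and 2.53 to 7.89 in ND, and the B cell markers to 12.96 to 51.4 in HFD and 15.5 to 114 in ND. No class of lymphocyte markers separated the diets. The monocyte, macrophage and dendritic cell markers summed to 64.3 to 221 in HFD and 72.8 to 259 in ND. The innate adaptors summed to 3.4 to 16.3 in HFD and 0 to 4.13 in ND, ranges that overlapped through HFD26 and ND20. The neutrophil markers reached 2.68 in HFD and 0 in ND, and were at 0 in HFD23 and HFD27 too. The highest ND value of the shared, T cell, NK and monocyte classes came from ND15.17.18, and that of the B cell class from ND19.

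No leukocyte marker passed the test between the diets. Of the 27 members above 0 in at least 4 libraries, 0 had an adjusted p under 0.05 (limma, Benjamini-Hochberg over 27401 rows), and the smallest was 0.359. Over all tested rows 3 were called, 0.0109%. At an unadjusted p under 0.05 (limma) there were 4 members, Cd3e, Ms4a1, Cd53 and Tyrobp, all higher in HFD. Of all tested rows, 10.5% lay under that threshold (6.43% higher in HFD). Cd3e, Ms4a1 and Tyrobp were above 0 in every HFD library but, among ND libraries, in ND16 alone. They thus passed the filter only through the HFD libraries, which favours a higher value there, so their shared direction is not separate support. All 4 HFD libraries lay above all 4 ND libraries for 2 members, Cd53 and Cd3e, against 4.72% of all tested rows, and below them for 0 members, against 3.12%. The fitted difference was positive for 16 members and negative for 11, with a median of 0.31. Over all tested rows the median was 0.12 and 59.9% were positive. The 27 tested members are not the whole list: the 6 others were above 0 in fewer than 4 libraries.

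**Figure D3:**
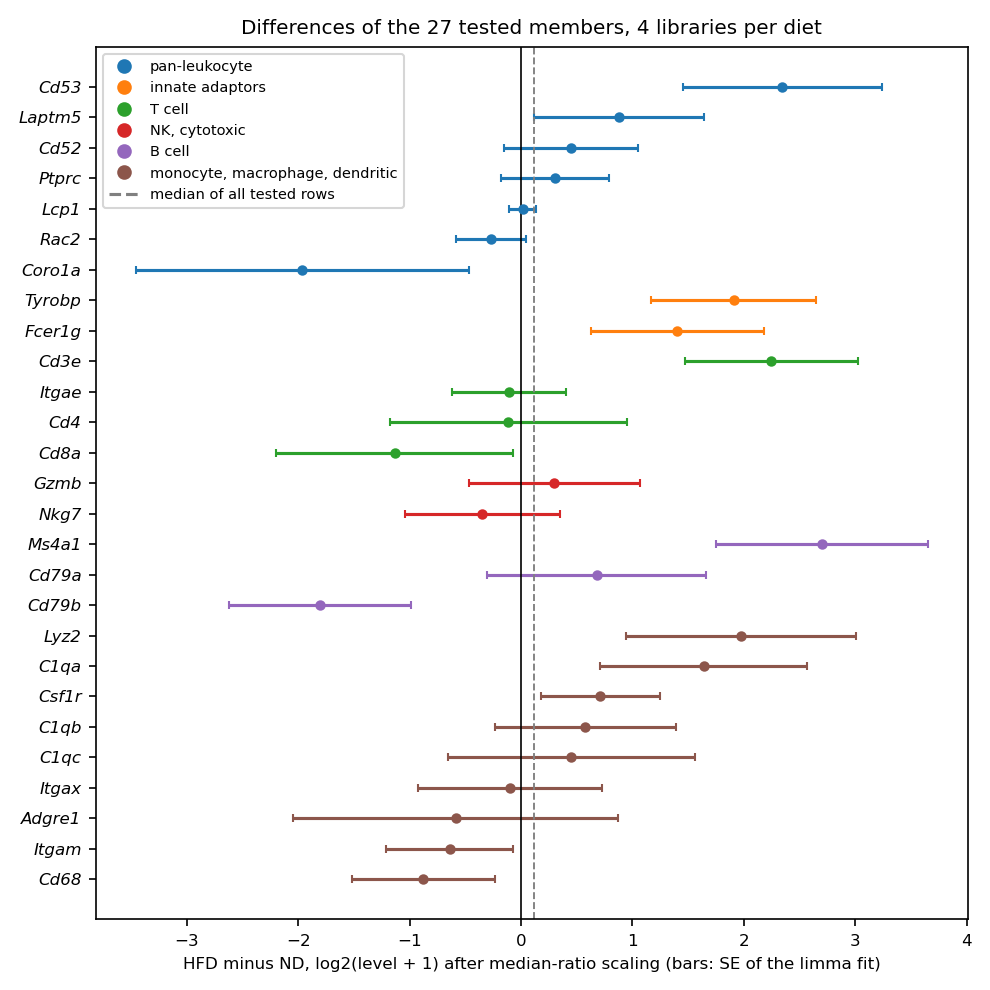
Difference between HFD and ND in log2(level + 1) for the 27 tested members (points, coloured by class), with the standard error of the limma fit as bars, 4 libraries per diet; the dashed line is the median of all tested rows (0.12). Ms4a1, Cd53, Cd3e and Lyz2 lie furthest right and Coro1a and Cd79b furthest left, and none passed the adjusted threshold.

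By class, the median fitted difference was 0.31 for the 7 shared markers, 1.66 for the 2 adaptors, -0.11 for the 4 tested T cell markers, -0.02 for the 2 tested NK markers, 0.68 for the 3 tested B cell markers and 0.45 for the 9 monocyte, macrophage and dendritic cell markers. After median-ratio scaling the median over the 27 members was 0.31, and over all rows 0.12. On the deposited scale these medians were 0.87 and 0.90. There, 0 members were called (limma, smallest adjusted p = 0.32) and 16 rows were, 0.0584%. HFD lay above ND without overlap for 4 members on that scale, Cd53, Lyz2, Cd3e and Laptm5, against 7.82% of all rows.

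**Figure D4:**
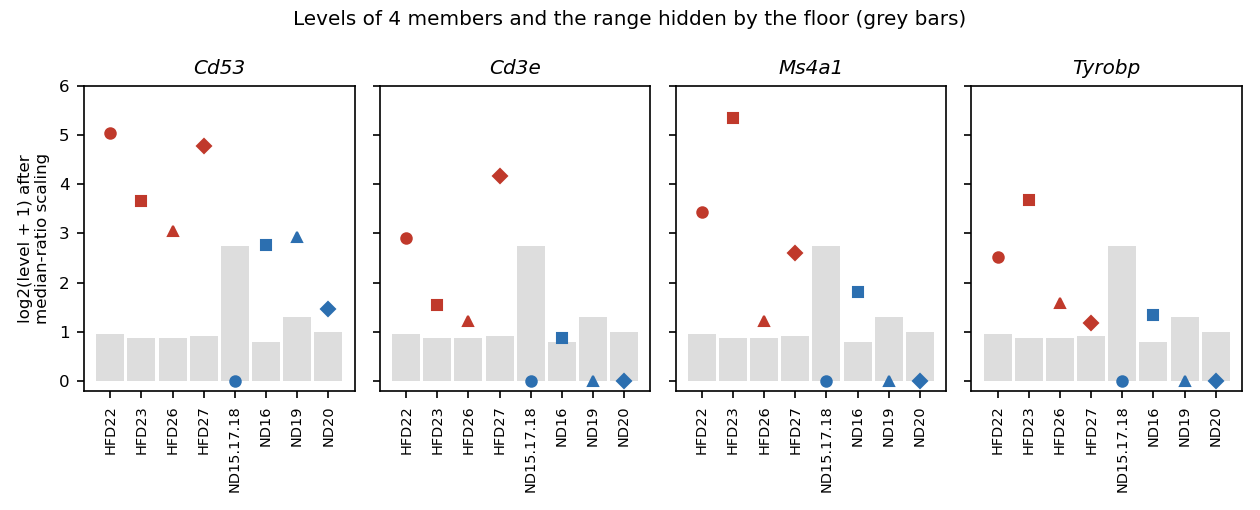
Level of Cd53, Cd3e, Ms4a1 and Tyrobp in each library (symbols, HFD in red on the left, ND in blue on the right), as log2(level + 1) after scaling; the top of each grey bar is the level below which that library lists a gene as 0. The bar of ND15.17.18 reaches 2.74, above the HFD23 and HFD26 values of Cd3e (1.55 and 1.23) and the HFD22, HFD26 and HFD27 values of Tyrobp.

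The 4 members with the smallest p were all listed at 0 in ND15.17.18, where the floor corresponds to a level of 2.74. With all values under that floor raised to it, 0 of 27 members were called, 2 had an unadjusted p under 0.05 (Cd53, higher in HFD, and Cd79b, lower) against 10.4% of all rows, and only Cd53 still lay higher in every HFD library, against 4.26% of all rows. The median difference was then 0.11, against 0.06 over all tested rows. Without ND15.17.18 the median was 0.53, against 0.09 over all rows, and 0 members were called (limma, 2 at an unadjusted p under 0.05, Ms4a1 and Cd3e, against 8.81% of all rows). HFD23 held the highest HFD value of Ms4a1, Tyrobp, Lyz2 and Laptm5. Without it their differences were 1.97, 1.43, 1.55 and 0.41, the median over members was 0.31, and 0 members were called (limma, 3 at an unadjusted p under 0.05, Cd53, Ms4a1 and Cd3e, against 9.03% of all rows).

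A ratio of genes within a library does not depend on how libraries were scaled, and was used to set CD45 against the epithelium. The log2 ratio of Ptprc to Epcam, the epithelial adhesion molecule, was -5.67, -5.98, -5.98 and -5.80 in HFD libraries, against -4.35, -4.81, -7.24 and -5.56 in ND libraries. The mean was -5.86 ± 0.15 in HFD and -5.49 ± 1.27 in ND (SD, n = 4 each), a difference of -0.37 (exact two-sided permutation p = 0.571, where 70 divisions allow no p below 0.0286). With Cdh1 (E-cadherin) as the epithelial gene the ratio averaged -7.91 ± 0.18 in HFD and -8.65 ± 0.92 in ND, and the difference was 0.74 (exact two-sided permutation p = 0.171). After scaling, Epcam itself was higher in every HFD library than in any ND library (0.68 higher on average, adjusted p = 0.201, limma) and Cdh1 lower (-0.43, adjusted p = 0.281), so the ratios carry opposite shifts of the epithelial genes. The sign thus depended on the epithelial gene chosen, and on single libraries: with Epcam the difference was 0.01 without ND15.17.18, and -0.96 without ND19 (exact permutation p = 0.0571, the smallest that 4 against 3 libraries allow). Lcp1 stood 4.73 ± 0.09 above Ptprc on the log2 scale in HFD and 5.03 ± 1.23 above it in ND, so these shared markers kept a tight ratio among HFD libraries and a loose one among ND libraries, with ND19 (6.5) and ND15.17.18 (3.65) at the ends.

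Further leukocyte genes were examined in 9 lists that hold no member, 134 genes of which 114 were tested. None was called (limma), 1 had an unadjusted p under 0.05 against the 10.5% of all rows, and the median difference was 0.22 with 77 positive and 37 negative. That gene was Spib, an ETS factor of B cells that also marks M cells of the gut epithelium, which averaged 8.25 in HFD and 9.04 in ND (-0.79 ± 0.26, adjusted p = 0.327). Ccr9, a chemokine receptor of gut-homing T cells, had a median level per kilobase of 303, against 5.83 for Cd8a and 0.27 for Cd3e, and averaged 11.64 in both diets. Itgal, the CD11a integrin chain, reached 128 and Vav1, a signalling protein of blood cells, 82.1, against 297 for Lcp1, 90.4 for Rac2 and 5.71 for Ptprc.

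Several lists of other cell types had larger median differences than the leukocyte markers, and their part in the leukocyte values was not tested. Over all tested rows 59.9% were higher in HFD and 10.5% had an unadjusted p under 0.05 (limma). Without overlap, 4.72% of all tested rows lay above ND in HFD and 3.12% below. The fibroblast and smooth muscle markers were higher in HFD for 12 of the 13 tested, with a median of 1.10, 0 called and 7 at an unadjusted p under 0.05. The 6 that lay above ND without overlap were the smooth muscle genes Acta2, Actg2, Myh11, Des, Cnn1 and Tagln. The collagen genes Col1a1, Col3a1 and Col1a2 differed by -0.14, 0.11 and 0.27. The whole fibroblast and smooth muscle list summed to 5953 to 10253 in HFD and 2041 to 9791 in ND. The forestomach squamous markers were higher for 12 of 14 tested, with a median of 1.93, 0 called and 5 at an unadjusted p under 0.05. On the deposited scale 2 of them were called, Krt4 and Krt13 (limma, adjusted p = 0.0339 and 0.0387). Des was also called there (adjusted p = 0.0188), against 0.0584% of all rows. After scaling, the forestomach markers summed to 3307 to 7328 in HFD and 344 to 3387 in ND. The endothelial markers were higher for 9 of 10, with a median of 0.53, and summed to 2325 to 3036 in HFD and 1307 to 3977 in ND. The erythrocyte and platelet markers, which would mark blood carried into the sort, had a median of 0.22 over 7 tested, with 4 positive, and summed to 586 to 1880 in HFD and 294 to 1576 in ND. The gastric epithelial markers went both ways: their median was -0.09 over 16 tested, with 0 called and 5 at an unadjusted p under 0.05, 3 higher and 2 lower. Without overlap, 2 of them lay above ND in HFD and 2 below, Cdh1 among the second pair and Epcam among the first.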

How the data were processed

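RNA was sequenced from 8 libraries of sorted gastric epithelial cells, grouped as HFD or ND by their titles. Per the labels' protocols, total RNA was depleted of ribosomal RNA with a RiboMinus kit and made into libraries with an Ion Total RNA-Seq kit. The submitters' processing notes name mm10 and bedtools 2.17.0, without their roles, and aligner, annotation, strand setting and normalization method are not stated in the sources used here. The deposited values were read as log2 values normalized by the authors, per the file headers and because their antilogs sum to 36.9 M in every library.

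Antilogs were taken, with 0 kept as 0. Libraries were scaled by the median of their ratios to the mean profile, taken over 11115 rows whose value exceeded 30 in each of the 8 libraries. The filter kept rows reaching 1 on the linear scale in 4 or more libraries, before scaling. The test was limma 3.58.1 in R 4.3.3, with its trend and robust options, on log2(value + 1), HFD minus ND, with Benjamini-Hochberg adjustment over all 27401 rows and a threshold of 0.05. The added 1 shrinks differences of low genes, while a 0 that stands for a value under the floor can enlarge them. The limma step was run on simulated data, with changes only in rows of high level and spreads capped lower than those of many members. That run does not bear on members of low level.

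The worth of 1 read was estimated per library. Between 25.1 and 35.0% of values below 2000 steps were whole multiples of it within 0.01, so reads are estimates and neither count tests nor counting intervals were used. Spearman correlations between libraries ran from 0.845 to 0.980, and no libraries held identical values. No replicate number is shared between groups and no batch is labelled. Gene symbols and positions come from RefSeq, and exon lengths and overlaps from GENCODE M21.

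The members, the lists, the scaling and the rule for named genes were chosen with earlier results of these data known. Values per library are given for Ptprc, for the highest 2 members of each class, for members above 0 in 1 group only and for the 5 smallest p-values, beside the members that the text says were chosen after their values were seen. For the remaining members, values per library or ranges complete the account of each class, and of each further list up to 3 genes may be named (the highest and those of smallest p). Alternatives were the deposited scale, quantile normalization, a common total without the 20 most abundant rows of any library, a pseudocount of 32, other filters, no robust option and leaving out each library. A common floor, and the deposited scale without ND15.17.18, were added after seeing the data.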

Additional observations from a re-analysis of the deposited data

Results flagged for a closer look

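Of 50 groups of 4 values examined (25 members in each diet), 6 held a library further from the others than Dixon's 95% limit allows. Chance marks about 1 in 20 groups of continuous values, a rate that does not apply to 5 of the 6, since their 3 other libraries are listed at 0 and any value above 0 is then marked. Cd3d and Ighm were also among the 25 members because they were above 0 in 1 diet only. Levels are log2(value + 1) after scaling.

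Coro1a stood at 12.84 in ND15.17.18, against 5.93 to 6.79 in the other ND libraries. Coro1a was not alone in this: the further list of 10 dendritic cell genes summed to 151714 on the scaled linear scale in ND15.17.18. That list summed to 1169 to 8931 in the other ND libraries and to 2550 to 3703 in HFD libraries. The 20 most abundant rows of ND15.17.18 also took 85.7% of its total. Whether the Coro1a reads belong to the same feature of the library was not tested. In ND16, Ms4a1 stood at 1.80, Tyrobp at 1.33 and Cd3e at 0.87, and each was listed at 0 in the 3 other ND libraries. In HFD22, Cd3d stood at 1.28 and Ighm at 0.99, and each was listed at 0 in the 3 other HFD libraries. These 5 values rest on 1 to 3 reads, and HFD22 and ND16 are the libraries with the fewest members listed at 0 in their diet (2 and 4).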

How the results depend on the processing

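No member was called under any alternative run. Of 357 values of 21 members under alternatives, 13 turned the direction of their difference, and Nkg7 had none with the common floor. On the deposited scale Itgae was at 0.66, Itgam at 0.19 and Rac2 at 0.59, and without ND15.17.18 on that scale Rac2 was at 0.20. Itgae was at 0.0386 on a common total without the 20 most abundant rows, and Gzmb at -0.00180 with the common floor. With 1 library left out, Gzmb ran from -0.0726 (without HFD22) to 0.77, Itgae from -0.328 to 0.15 (positive without ND16 or ND19), Lcp1 from -0.0425 (without ND15.17.18) to 0.110 (-0.0420 without ND16, -0.00878 without HFD22), and Ptprc from -0.16 (without ND19) to 0.70 (without ND15.17.18; 0.420 without ND16). The median over tested members was 0.87 on the deposited scale and ran from 0.12 to 0.57 with 1 library left out; with rows of at least 30 it was -0.13 over 6 members. Rows called numbered 16 on the deposited scale, 1 on the common total without the 20 most abundant rows and 1 without ND15.17.18 on the deposited scale, and ran from 2 to 5 with 1 library left out (5 without ND16). The causes were not tested. The log2 ratio of Ptprc to Epcam differed by 0.74 with Cdh1 in its place and by -0.96 to 0.0091 with 1 library left out (0.0091 without ND15.17.18). No paired analysis was possible because the groups share no replicate number. Depth limits every member with few reads, and a value of 0 in ND15.17.18 bounds a gene only below 5.70.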
